A study of Mus musculus with 12 samples.

Results

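Ctla4, Cd28, Icos, Cd80, Cd86 and Icosl, the receptors and ligands of T cell costimulation, were followed in mouse hepatocellular carcinoma under checkpoint antibodies given with or without Dexa. The 6 genes were taken by name, as the pathway of the second antibody, from a panel of 770 genes. The rule uses no measured value, though earlier results of these data were known when it was written. All 6 passed the filter on low counts, as did 635 of the 770. The panel was counted in 12 primary tumour samples, 3 in each of 4 groups. The groups were dICB, which is anti-PD-1 plus anti-CTLA4, the same antibodies with Dexa at 10 mg, the same antibodies with Dexa at 200 mg, and isotype. All 3 groups other than isotype carried both antibodies, so Dexa was seen here only on top of them. The labels give the doses in mg without body weight or schedule and do not spell Dexa out. The series title names corticosteroid premedication. The sources used here give neither strain nor age nor the way the tumours were induced, and do not state whether each sample is a different animal.

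A T cell needs a costimulatory signal beside the signal of its antigen receptor. CD28 on the T cell receives it from CD80 and CD86, the B7 proteins of dendritic cells, macrophages and B cells. CTLA-4, which appears on activated and regulatory T cells, binds the same ligands more tightly than CD28 and restrains the response, and this is the brake that an antibody against CTLA-4 is meant to release. ICOS is a later costimulatory receptor of activated T cells, and ICOSL is its ligand. Glucocorticoids are widely used to dampen T cell responses. The counts measured transcript and not the protein that the antibody binds. In bulk tissue, fewer cells of a type and less RNA per cell cannot be told apart.

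The 3 receptor genes lie side by side on mouse chromosome 1 (GRCm38.p6): Cd28 at chr1:60746388-60773359, Ctla4 at chr1:60909025-60915832 and Icos at chr1:60960773-61000322. Both B7 genes lie on chromosome 16, Cd86 at chr16:36568956-36666158 and Cd80 at chr16:38457430-38495958. Icosl lies at chr10:78069368-78079525. RefSeq promoter sequence of that build was at hand for 3 of the 6 genes, Ctla4, Cd80 and Icosl. It is shown for Ctla4, the target of the second antibody, and for Cd80, whose window holds the core motif to which the glucocorticoid receptor binds. Each line gives the 250 bases before the annotated start on the plus strand, Ctla4 at chr1:60908775-60909024 and Cd80 at chr16:38458683-38458932, and capitals mark the core AGAACA or its reverse complement TGTTCT.
Ctla4: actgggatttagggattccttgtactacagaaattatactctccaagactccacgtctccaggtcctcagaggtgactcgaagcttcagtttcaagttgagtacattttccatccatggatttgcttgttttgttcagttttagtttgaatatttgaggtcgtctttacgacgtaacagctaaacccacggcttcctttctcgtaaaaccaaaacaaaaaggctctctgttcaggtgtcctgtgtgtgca
Cd80: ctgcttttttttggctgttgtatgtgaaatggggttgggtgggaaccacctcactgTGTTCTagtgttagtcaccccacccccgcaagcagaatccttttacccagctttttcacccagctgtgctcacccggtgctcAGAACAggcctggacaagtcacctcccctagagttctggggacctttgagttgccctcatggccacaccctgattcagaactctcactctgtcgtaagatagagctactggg
The Cd80 window held 2 cores, the first at position -194 from the start. The start used for Cd80 lies 1503 bases inside the gene's span. The Ctla4 and Icosl windows held 0. Of 32851 promoter windows of this length, 5284 (16.1%) held at least 1 core on either strand, and the full palindrome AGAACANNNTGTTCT occurred in 3, none of them a window of these genes. A match of letters is a description of the sequence and not a binding site.

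Each sample held 252994 to 428944 counts in genes, and between 549 and 604 genes lay above the background limit, the mean of the negative control probes plus 2 SD (18.1 to 38.1 counts). Values below are normalised counts, scaled to a common library of 359608 counts. Changes are log2 fold changes ± SE from edgeR's quasi-likelihood test over all 12 samples, and adjusted p-values are Benjamini-Hochberg over the 635 genes. A level of one gene is not set against that of another, since probes differ in efficiency. T cell genes were present, and all 10 listed T cell genes were tested. Cd3d, Cd3e, Cd3g, Cd247, Cd6 and Cd8a lay above the limit in all 12 samples, Cd5 and Cd8b1 in 10, Cd2 in 9 and Cd4 in 8. The liver markers Alb, Ttr and Afp were not analysed here, so only 5 listed epithelial and hepatocyte genes bear on the labelled tumour type. Apoe, a secreted liver and macrophage protein, Epcam, an epithelial adhesion molecule, and Egfr were above the limit in 12 samples. Cdh1 was above it in 8 and Muc1 in 0. The sample codes in the labels begin with ICI7 or ICI10, with no meaning given. All isotype samples were ICI7 and all dICB samples ICI10, so for these groups the antibodies and the code cannot be told apart. In the 10 mg group replicates 1 and 3 were ICI7, and in the 200 mg group replicate 3. Replicate 1 of dICB stood apart with 15824 normalised counts of the neutrophil gene S100a8, against 164.8 to 484.2 in the other samples, and replicate 2 of the 10 mg group stood apart in an earlier account of these data.

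Ctla4, the receptor that the second antibody targets, had its lowest group means in the tumours given Dexa, but the difference did not pass the threshold. It stood at 84.7, 68.4 and 52.1 normalised counts in dICB, at 39.4, 58.7 and 40.1 with Dexa 10 mg, at 32.4, 40.9 and 52.8 with Dexa 200 mg, and at 59.1, 54.5 and 58.3 in isotype. Of the 6 Dexa samples, 4 lay below every dICB and isotype sample, and the other 2 lay inside the dICB range. Raw counts of Ctla4 ran from 29 to 95, at 1.21 to 2.81 times the background limit of their sample. Over both doses, Ctla4 averaged 44.0 ± 9.73 (SD, n = 6) in Dexa tumours and 68.4 ± 16.3 (SD, n = 3) in dICB tumours. The log2 fold change was -0.65 ± 0.21, with a 95% interval from -1.11 to -0.19, an unadjusted edgeR p of 0.00932 and an adjusted p of 0.254. It ranked 22nd of the 635 genes by p.

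Against dICB, Ctla4 was at -0.58 ± 0.25 for 10 mg (edgeR, unadjusted p = 0.0363, adjusted p = 0.470) and at -0.72 ± 0.25 for 200 mg (edgeR, unadjusted p = 0.0143, adjusted p = 0.387). These comparisons share the dICB samples, and without dICB replicate 1 the values were -0.38 and -0.55. Between the doses the difference was -0.14 ± 0.26, 200 mg over 10 mg, with an interval from -0.69 to 0.42 (edgeR, adjusted p = 0.824), and it was 0.41 among samples coded ICI7 and -0.69 among those coded ICI10. In samples coded ICI10 alone, Ctla4 was at -0.57 ± 0.27 for both doses against dICB (edgeR, adjusted p = 0.530), with -0.92 for 200 mg and -0.23 for 10 mg, where 1 sample stood for the 10 mg group. Without dICB replicate 1, the difference for both doses was -0.46 (edgeR, adjusted p = 0.997).

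**Figure D1:**
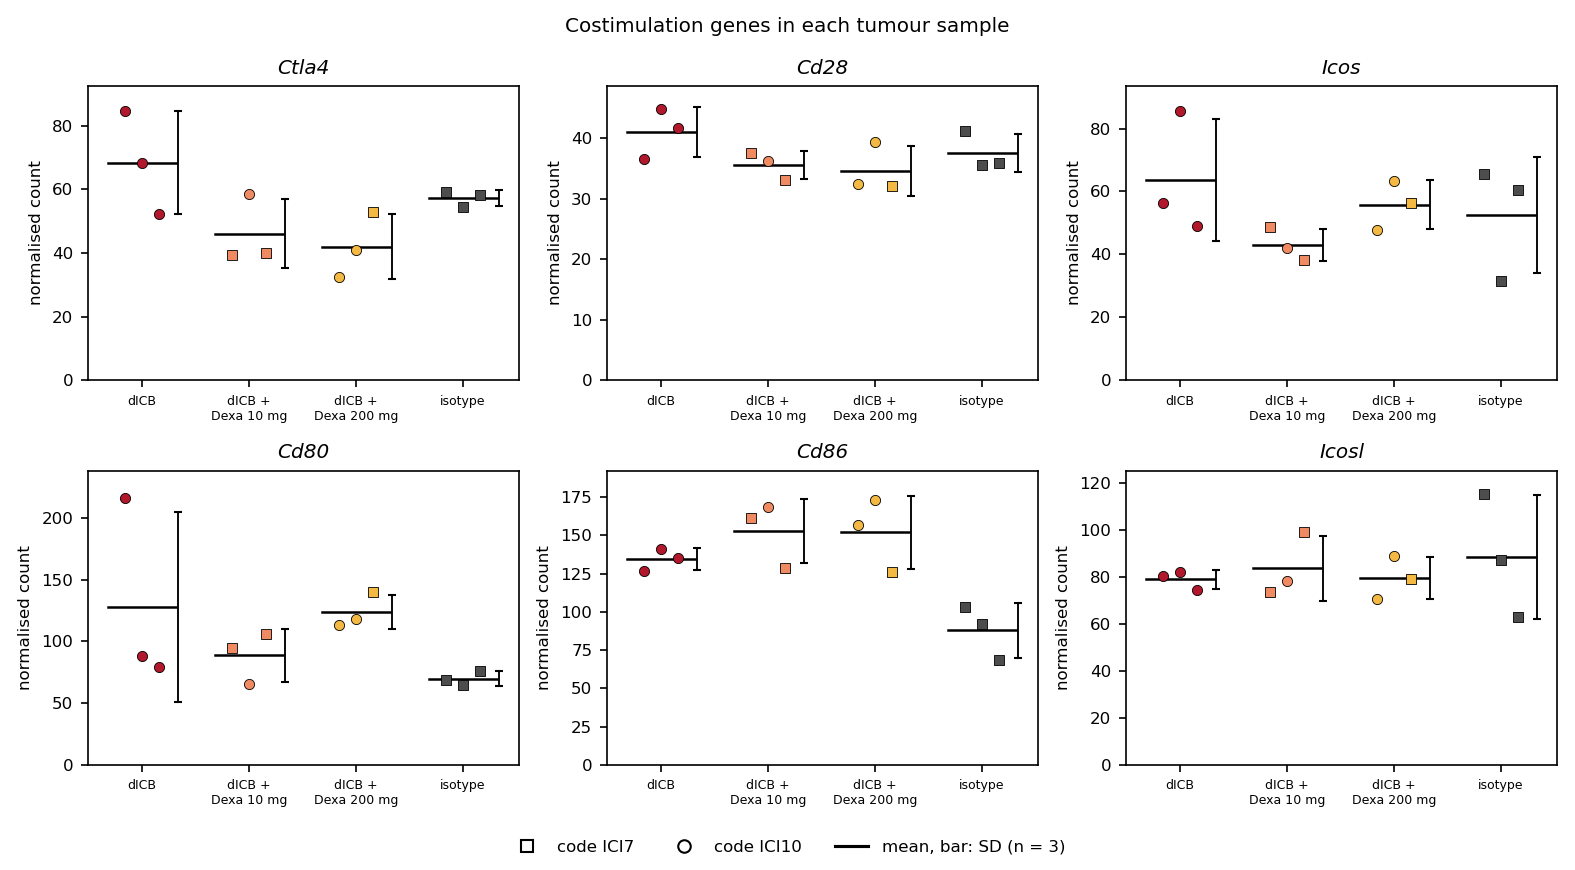
Normalised counts (vertical axis, from 0) of the 6 costimulation genes in the 12 tumour samples, by group; each point is 1 sample, squares carry code ICI7 and circles ICI10, the line is the mean and the bar the SD of 3 samples. Cd86 was higher in every dICB and Dexa sample than in every isotype sample, and the share of all genes that were so was not counted. Cd80 of dICB replicate 1, at 216.6, stood far above the other samples.

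Against isotype, Ctla4 passed the threshold in no antibody group. It averaged 68.4 ± 16.3 in dICB and 57.3 ± 2.44 in isotype (SD, n = 3 each), a log2 fold change of 0.27 ± 0.25 (edgeR, adjusted p = 0.594), and without dICB replicate 1 it was 0.09. With Dexa 10 mg it averaged 46.1 ± 10.9, at -0.32 ± 0.25 against isotype (edgeR, adjusted p = 0.716). With Dexa 200 mg it averaged 42.0 ± 10.2, at -0.46 ± 0.26 against isotype (edgeR, adjusted p = 0.227). The 200 mg samples all lay below the isotype samples, in a comparison where groups did not overlap for 44.6% of all genes. Among samples coded ICI7 the values against isotype were -0.55 for 10 mg (edgeR, adjusted p = 0.343) and -0.14 for 200 mg. With factors from housekeeping genes, which moved the median of all genes to 0.55, Ctla4 for 200 mg against isotype turned to 0.09.

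Icos, the inducible costimulator, stood at 56.2, 85.5 and 49.2 normalised counts in dICB, at 48.6, 41.9 and 38.3 with Dexa 10 mg, at 47.7, 63.4 and 56.2 with Dexa 200 mg, and at 65.7, 31.5 and 60.5 in isotype. All 3 samples of the 10 mg group lay below the dICB samples, the nearest pair being 48.6 and 49.2. In that comparison groups did not overlap for 7.87% of all genes. The 200 mg group overlapped with dICB. Isotype replicate 2 was not above its background limit. The log2 fold change for 10 mg against dICB was -0.58 ± 0.29 (edgeR, unadjusted p = 0.0678, adjusted p = 0.537). For both doses against dICB it was -0.39 ± 0.25 (edgeR, adjusted p = 0.847), and for dICB against isotype 0.29 ± 0.29. Without dICB replicate 2 these values were -0.26, -0.10 and -0.02. Among samples coded ICI10 the values against dICB were -0.61 for 10 mg and -0.41 for both doses.

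Cd28, the receptor that carries the costimulatory signal, was the member nearest to background. It stood at 36.6, 44.8 and 41.7 normalised counts in dICB, at 37.6, 36.3 and 33.1 with Dexa 10 mg, at 32.4, 39.5 and 32.1 with Dexa 200 mg, and at 41.3, 35.7 and 35.9 in isotype. None of its 7 fold changes passed the threshold, and they spanned -0.25 to 0.12. Replicate 3 of isotype and replicate 3 of the 10 mg group were not above the background limit. At these counts a change in Cd28 would be understated, since background was left in the values.

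Cd86, the B7 ligand found on resting and activated antigen-presenting cells, was the member with the clearest difference. It stood at 126.6, 140.9 and 135.5 normalised counts in dICB, at 161.4, 168.5 and 128.9 with Dexa 10 mg, at 156.8, 173.3 and 126.2 with Dexa 200 mg, and at 103.2, 92.3 and 68.4 in isotype. Every sample given the antibodies, with or without Dexa, lay above every isotype sample. The share of all genes that separated so over the 3 groups at once was not counted. Taken singly against isotype, groups did not overlap for 22.7% of all genes in dICB, 13.1% with Dexa 10 mg and 44.6% with Dexa 200 mg. Cd86 averaged 152.1 ± 23.9 with Dexa 200 mg and 88.0 ± 17.8 in isotype (SD, n = 3 each), and rose by a log2 fold change of 0.79 ± 0.22 (edgeR, adjusted p = 0.0353). That is 1.72-fold, with a 95% interval of the log2 value from 0.30 to 1.27. It was the only one of the 6 genes called in this comparison, in which 13.2% of all genes passed.

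The other antibody groups gave similar values for Cd86 without passing. With Dexa 10 mg it averaged 152.9 ± 21.1, at 0.79 ± 0.22 against isotype (edgeR, unadjusted p = 0.00349, adjusted p = 0.340). By p it ranked 6th of 635 there, and 69th in the 200 mg comparison. In dICB it averaged 134.3 ± 7.24, at 0.61 ± 0.22 against isotype (edgeR, unadjusted p = 0.0173, adjusted p = 0.158). All 3 comparisons share the same isotype samples. No change of Cd86 with Dexa was detectable on top of the antibodies: against dICB, it was at 0.19 ± 0.22 for 10 mg, 0.18 ± 0.22 for 200 mg and 0.18 ± 0.19 for both doses, with an interval for both from -0.23 to 0.60. Between the doses the difference was -0.01 ± 0.22, with an interval from -0.48 to 0.46. Among samples coded ICI10 it was 0.31 ± 0.19 for both doses against dICB.

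The call for Cd86 at 200 mg rested on all samples but 1. Its adjusted p was 0.111 without isotype replicate 2, 0.189 without isotype replicate 3, and 0.0858, 0.155 and 0.0725 without replicate 1, 2 or 3 of the 200 mg group, while without isotype replicate 1 it was 0.0343 (edgeR). The log2 fold change stayed between 0.62 and 0.92 in these fits. With the sample code as a covariate it was 0.58 (edgeR, adjusted p = 0.173). Among samples coded ICI7 it was 0.49 ± 0.28 for 200 mg, where 1 sample stood for that group (edgeR, adjusted p = 0.214), and 0.70 ± 0.21 for 10 mg (edgeR, adjusted p = 0.277).

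**Figure D2:**
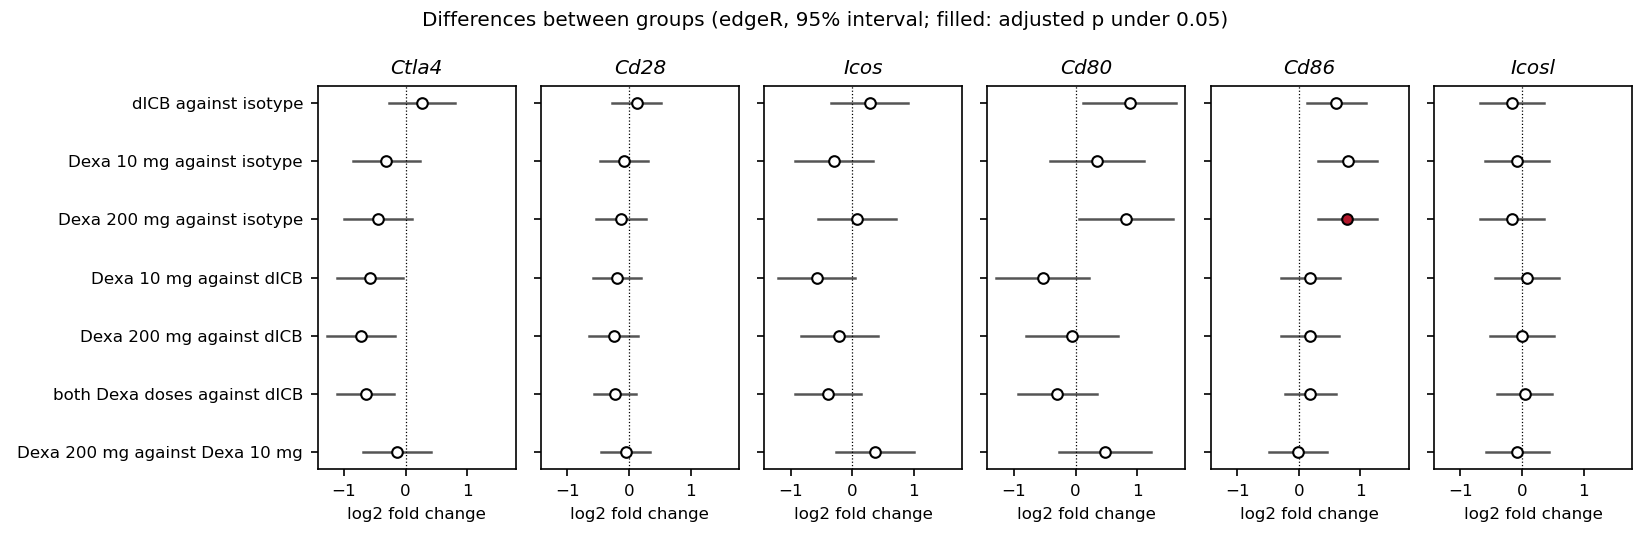
Log2 fold changes (horizontal axes, first-named group over second) of the 6 genes in 7 comparisons, with 95% intervals from edgeR over 12 samples; Dexa groups also carried both antibodies, and the filled point has an adjusted p under 0.05. The filled point is Cd86 for Dexa 200 mg against isotype, at 0.79, and the Ctla4 intervals against dICB lie below 0 without passing the adjusted threshold.

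Cd80, the B7 ligand that antigen-presenting cells add on activation, was higher in dICB and in the 200 mg group than in isotype without passing the threshold. It stood at 216.6, 88.0 and 78.9 normalised counts in dICB, at 94.5, 65.2 and 106.3 with Dexa 10 mg, at 113.3, 118.4 and 140.0 with Dexa 200 mg, and at 68.5, 65.0 and 76.2 in isotype. The dICB and 200 mg samples all lay above the isotype samples, and the 10 mg samples overlapped with them. Against isotype, groups did not overlap for 22.7% of all genes in dICB and 44.6% with Dexa 200 mg. For dICB against isotype the log2 fold change was 0.88 ± 0.35 (edgeR, unadjusted p = 0.0270, adjusted p = 0.181), and without dICB replicate 1 it was 0.26. For 200 mg against isotype it was 0.82 ± 0.35 (edgeR, unadjusted p = 0.0362, adjusted p = 0.129), and it stayed between 0.73 and 0.89 as each sample was left out. Of 10 other settings it passed in 3, with an adjusted p of 0.0285 for housekeeping factors, which moved the median of all genes to 0.55, 0.0103 in a fit of those groups alone and 0.0225 among samples coded ICI7 (edgeR). It missed in the other 7, DESeq2 and limma among them, with adjusted p up to 0.142 (edgeR, no filter on low counts). In the ICI7 fit 1 sample stood for 200 mg and was assumed to vary like the other groups. For 10 mg against isotype it was 0.34 ± 0.35, and 0.50 ± 0.17 among samples coded ICI7.

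Set against dICB alone, Cd80 was at -0.53 ± 0.35 for 10 mg, -0.05 ± 0.34 for 200 mg and -0.29 ± 0.29 for both doses, with adjusted p-values of 0.693, 0.976 and 0.896 (edgeR). All of these turned positive without dICB replicate 1, to 0.10, 0.56 and 0.33. Among samples coded ICI10, which hold that replicate, they were -0.98, -0.15 and -0.56. The 200 mg samples all lay above the 10 mg samples, at 0.48 ± 0.35 (edgeR, adjusted p = 0.534), in a comparison where groups did not overlap for 21.7% of all genes. It was 0.48 among ICI7 samples and 0.83 among ICI10 samples.

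Icosl, the ligand of ICOS on antigen-presenting and stromal cells, stood at 80.2, 82.3 and 74.5 normalised counts in dICB, at 73.4, 78.2 and 99.3 with Dexa 10 mg, at 70.7, 88.8 and 79.2 with Dexa 200 mg, and at 115.4, 87.1 and 62.8 in isotype. The isotype samples spanned the range of all the others, and the 7 log2 fold changes ran from -0.16 to 0.08.

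Ordered by group mean, Ctla4 ran from dICB (68.4) through isotype (57.3) and Dexa 10 mg (46.1) to Dexa 200 mg (42.0), and no neighbours in that order differed beyond their spread. Cd86 ran from Dexa 10 mg (152.9), Dexa 200 mg (152.1) and dICB (134.3), which overlapped, to isotype (88.0), which did not overlap with them. Cd80 ran from dICB (127.8) and Dexa 200 mg (123.9) through Dexa 10 mg (88.6) to isotype (69.9), with the 200 mg and 10 mg groups apart and the other neighbours overlapping. Cd28, Icos and Icosl had group means of 34.7 to 41.0, 42.9 to 63.6 and 79.0 to 88.4, and only Icos had groups that did not overlap.

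The members' counts of calls are set here beside those of all genes. At an adjusted p under 0.05, edgeR called 0 of the 6 genes and 0% of all genes in each comparison other than 200 mg against isotype. There, 84 of 635 genes (13.2%) and 1 of the 6 genes passed. DESeq2 called 31 genes for dICB against isotype, 4 for 10 mg against isotype, 3 for 200 mg against dICB, 2 for both doses against dICB and 0 for 10 mg against dICB and between the doses, with none of the 6 genes among them. It called 122 for 200 mg against isotype, Cd86 among them. At an unadjusted edgeR p under 0.05, 2 of the 6 genes and 20% of all genes passed for dICB against isotype, 1 and 8.35% for 10 mg against isotype, and 2 and 32.3% for 200 mg against isotype. In the same way 1 of the 6 genes passed against dICB at 10 mg (9.45% of all genes), at 200 mg (8.5%) and for both doses (8.35%), each time Ctla4, and 0 passed between the doses (12%). Groups did not overlap for 2 of the 6 genes and 22.7% of all genes for dICB against isotype, for 1 and 13.1% for 10 mg against isotype, and for 3 and 44.6% for 200 mg against isotype. They did not overlap for 1 gene and 7.87% for 10 mg against dICB, 0 and 8.82% for 200 mg against dICB, 0 and 2.2% for both doses against dICB, and 1 and 21.7% between the doses. In a test for any difference among the 4 groups, 5 genes (0.787%) passed and none of the 6 did, with adjusted p-values of 0.111 for Cd86, 0.241 for Ctla4, 0.289 for Cd80 and 0.531 to 0.940 for the rest (edgeR). At an unadjusted p, 1 of the 6 genes, Cd86, and 21.7% of all genes passed that test.

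Both B7 ligands are carried by myeloid cells, and the levels of genes of those cells are given beside Cd86. The summed level of Csf1r, Cd68, Itgam and Itgax ran from 1269 to 1605 normalised counts in dICB, from 1136 to 1492 with Dexa 10 mg, from 1708 to 1776 with Dexa 200 mg, and from 827.3 to 1243 in isotype. Their part in the Cd86 values was not tested as a cause. The level of Cd86 relative to them is given in the next paragraph. For 200 mg against isotype, genes of other kinds were lower: all 4 tested epithelial genes, with a median of -0.65 and 2 past the threshold, Egfr at -0.94 ± 0.27 and Epcam at -0.84 ± 0.23 (edgeR, adjusted p = 0.0383 and 0.0302), and 19 of 20 housekeeping genes, with a median of -0.56, of which 6 fell and 1 rose past it. Their part was not tested either. In the same comparison, 2 of the 4 myeloid genes passed, the macrophage scavenger gene Cd68 at 0.85 ± 0.20 (edgeR, adjusted p = 0.0177) and the integrin Itgam at 1.39 ± 0.39 (edgeR, adjusted p = 0.0353). Of 10 listed macrophage genes 3 passed, all higher, and the median of the 10 was 0.59, against 0.03 over all genes. Of 7 tested dendritic cell genes 2 passed, the chemokines Ccl17 at 2.40 ± 0.46 and Ccl22 at 1.61 ± 0.31, where 13.2% of all genes passed. Of those 7 genes 5 were higher and 2 lower, Cd83 at -0.42 and Xcr1 at -0.05, and their median was 0.28. The dendritic cell markers Flt3 and Xcr1 were above background in 0 and 1 samples.

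Taken relative to the mean log2 level of those 4 myeloid genes, Cd86 overlapped between 200 mg and isotype. The difference was -1.22, -1.15 and -1.54 with Dexa 200 mg, against -1.26, -0.99 and -1.34 in isotype. The means differed by -0.11 (exact permutation test, two-sided, p = 0.60). For dICB against isotype the means differed by 0.02 (exact permutation test, two-sided, p = 0.90). With Dexa 10 mg the values were -0.92, -0.94 and -0.93, all above isotype, a difference of 0.27 (exact permutation test, two-sided, p = 0.10, adjusted p = 0.467). Cd80 relative to the same genes differed by -0.08 for 200 mg against isotype (exact permutation test, two-sided, p = 0.70). Icosl relative to them was lower than isotype without overlap in the 200 mg group, by -1.02, and in dICB, by -0.73 (exact permutation test, two-sided, p = 0.10 and adjusted p = 0.467 for each), while with Dexa 10 mg it overlapped, at -0.59. Relative to Csf1r alone these Icosl differences were -0.65 for 200 mg and -0.48 for dICB. Icosl itself overlapped with isotype in both comparisons, at -0.16 in each. All 4 myeloid genes were higher there, with a median of 0.86 for 200 mg and 0.45 for dICB. The share of all genes that separated so, relative to the myeloid genes, was not counted. With 3 samples against 3 the smallest p of the permutation test is 0.10, and for both doses against dICB it is 0.0119. Adjustment ran over 56 such relative differences. Even at these smallest values no adjusted p could pass the threshold, so the absence of calls decides nothing.

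**Figure D3:**
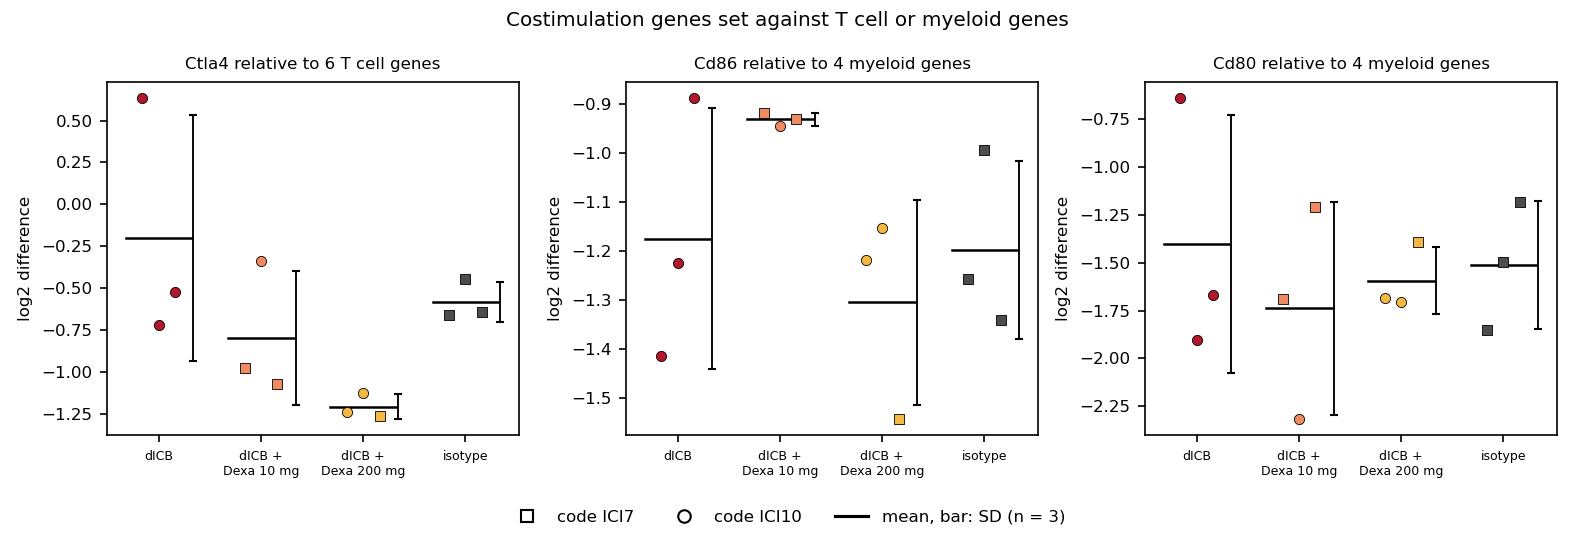
Log2 normalised count of Ctla4 minus the mean of 6 T cell genes, and of Cd86 and Cd80 minus the mean of 4 myeloid genes (vertical axes, log2 difference), for each of 12 samples by group; squares carry code ICI7 and circles ICI10, the line is the mean and the bar the SD of 3 samples. The 3 samples with Dexa 200 mg lie at -1.12 or below for Ctla4, under all isotype and dICB samples, while Cd86 and Cd80 overlap between 200 mg and isotype.

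Ctla4 was set in the same way against 6 T cell genes, Cd3d, Cd3e, Cd3g, Cd2, Cd5 and Cd6. Of these, Cd2 was above the background limit in 9 samples and Cd5 in 10, and in dICB replicate 1, 2 of the 6 were not above it. The difference was -0.98, -0.34 and -1.07 with Dexa 10 mg and -1.24, -1.12 and -1.26 with Dexa 200 mg, against 0.64, -0.72 and -0.52 in dICB and -0.66, -0.45 and -0.64 in isotype. The 200 mg samples lay below every sample of dICB and isotype, and the 10 mg samples overlapped with both. The share of all genes that separated so, relative to the T cell genes, was not counted. For both doses against dICB the means differed by -0.80 (exact permutation test, two-sided, p = 0.0714, the smallest possible being 0.0119, adjusted p = 0.467). No adjusted p of these relative differences could pass the threshold, even at that smallest p. Without dICB replicate 1, whose T cell genes were the lowest of all samples at a sum of 424.3 normalised counts, that difference was -0.38. For 200 mg against isotype it was -0.62, and for 200 mg against 10 mg, also without overlap, -0.41 (exact permutation test, two-sided, p = 0.10 for each). The T cell genes themselves did not pass in any comparison. Their summed level was 499 to 675.8 with Dexa 10 mg and 582.8 to 982 with Dexa 200 mg, against 424.3 to 943.2 in dICB and 570.6 to 725.4 in isotype. All 6 were higher for 200 mg against dICB and against 10 mg, with medians of 0.17 and 0.31, and 5 of the 6 against isotype. In 200 mg replicate 3, Ctla4 itself stood at 52.8, inside the dICB range, and the T cell genes at 982, the highest sum of all samples. Relative to Cd28, its partner on the same cells, Ctla4 differed by -0.41 for both doses against dICB (exact permutation test, two-sided, p = 0.190), and by -0.17 without dICB replicate 1.

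Regulatory T cells carry much of the CTLA-4 of tumours, and their defining gene Foxp3 was above background in 0 of 12 samples, as were Il10 and Ccr8. Of the 8 listed genes 5 were tested, Ctla4 and Icos among them, and none passed in any comparison. Il2ra, the high-affinity receptor chain for interleukin-2, stood at 62.3 ± 9.18 with Dexa 200 mg and 37.8 ± 1.88 in isotype (SD, n = 3 each), at 0.72 ± 0.25 (edgeR, adjusted p = 0.0716). Against isotype it was at 0.56 ± 0.25 in dICB (edgeR, adjusted p = 0.223) and 0.20 ± 0.25 with Dexa 10 mg (edgeR, adjusted p = 0.856). For 200 mg against dICB it was at 0.16 ± 0.24 (edgeR, adjusted p = 0.845). Of 7 follicular helper genes 5 were tested and none passed, and Cxcr5 and Il21 were above background in 0 samples.

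Beyond the members, 7 further genes of the B7 and CD28 family or of its binding partners were examined, and none passed. They were Pdcd1, Cd274, Pdcd1lg2, Cd276, Btla, Tnfrsf14 and Cd160. Cd274, which encodes PD-L1, the ligand of the first antibody's target, came nearest. It averaged 1681 ± 211 in dICB and 747.0 ± 23.0 in isotype (SD, n = 3 each), at 1.17 ± 0.28 (edgeR, adjusted p = 0.0992), and 1377 ± 282 with Dexa 200 mg, at 0.88 ± 0.27 against isotype (edgeR, adjusted p = 0.0512). Cd276, encoding B7-H3, was lower, at -0.75 ± 0.25 for 200 mg against isotype (edgeR, adjusted p = 0.0633). Of 16 tested genes of T cell activation signalling 1 passed, in 1 comparison: the kinase Syk, also used by myeloid and B cells, averaged 230.6 ± 23.2 with Dexa 200 mg and 116.5 ± 22.4 in isotype (SD, n = 3 each), at 0.98 ± 0.23 (edgeR, adjusted p = 0.0184). Against isotype, Syk was also at 0.80 ± 0.23 in dICB (edgeR, adjusted p = 0.105) and 0.48 ± 0.23 with Dexa 10 mg (edgeR, adjusted p = 0.643). The median of the 16 genes was 0.22 for 200 mg against isotype. Il2, the cytokine that CD28 signalling raises, was above background in 1 sample. Of 11 genes for costimulators of the TNF family 7 were tested and none passed, and Cd40lg and Tnfsf18 were above background in 0 samples.

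Of 16 listed genes that glucocorticoids induce, 9 were on the panel and none passed in any comparison. Tsc22d3, Fkbp5 and Per1 were not analysed here. For both doses against dICB 3 of the 9 were higher and 6 lower, with a median of -0.35, against -0.01 over all genes. The mean centred log2 level of the 9 was -0.17 to 0.27 over the 6 Dexa samples. In dICB it was 0.71 for replicate 1, above that range, while replicates 2 and 3 lay within it, at -0.02 and -0.14. Ccr2, a monocyte chemokine receptor, was at 0.63 ± 0.26 there (edgeR, adjusted p = 0.505), and the decoy receptor Il1r2 at -0.98 ± 0.36 (edgeR, adjusted p = 0.389). Il1r2 is also a neutrophil gene, and the summed neutrophil genes of dICB replicate 1 were at 18605 normalised counts, against 423.7 to 779.4 in the other samples. The part of that sample in the Il1r2 value was not tested.

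The genes whose pattern over the 12 samples was most like each member's were taken as the 3 highest Pearson correlations of log2 normalised counts among 634 genes, a description in which all points share library and group. For Cd86 they were Lcp1, Lgals3 and Cd68, at r = 0.88, 0.88 and 0.87, the first an actin-bundling protein of leukocytes and the second a lectin abundant in macrophages. For Cd80 they were Il1rn, Ccrl2 and Cmah, at 0.91, 0.88 and 0.87, and at 0.81, 0.80 and 0.78 without dICB replicate 1. Il1rn encodes the interleukin-1 receptor antagonist. For Ctla4 they were Il18rap, a chain of the interleukin-18 receptor, Snai1 and Tie1, at 0.85, 0.80 and 0.76. For Cd28 they were Cr2, Fasl and Icos, at 0.58 to 0.69, for Icos Irf4, Hcst and Gzmk, at 0.65 to 0.66, and for Icosl Pdgfrb, Thy1 and Tnfsf13, at 0.62 to 0.65. With values centred on group means, r was 0.665 to 0.692 for the genes of Cd86, 0.89 to 0.96 for Cd80 and 0.49 to 0.87 for Ctla4. It was 0.59 to 0.74 for Cd28, 0.54 to 0.72 for Icos and 0.66 to 0.74 for Icosl. The lowest rank correlations were those of Icosl with Pdgfrb (rho = 0.36) and Icos with Irf4 (rho = 0.39).

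Of 15 pairs of members none had correlations across the 12 samples with an adjusted permutation p under 0.05. With housekeeping factors 5 pairs did. Before group means were removed, the highest correlation was that of Cd28 and Icos. It stood at r = 0.58 (permutation p = 0.0486, adjusted p = 0.729) and rho = 0.57 (permutation p = 0.0584, adjusted p = 0.704). It was 0.43 without the 2 samples farthest from the median of Cd28. After each value was centred on its group mean it was 0.59, and Cd28 and Cd86 stood higher, at 0.70. Ctla4 and Cd28 had r = 0.40 (permutation p = 0.193, adjusted p = 0.935) and rho = 0.38 (permutation p = 0.216, adjusted p = 0.704), 0.38 without the 2 farthest, and -0.14 after centring. Cd80 and Cd86, which share their receptors, had r = 0.28 (permutation p = 0.377, adjusted p = 0.942) and rho = 0.25 (permutation p = 0.432, adjusted p = 0.704), 0.51 without the 2 farthest, and -0.44 after centring.

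**Figure D4:**
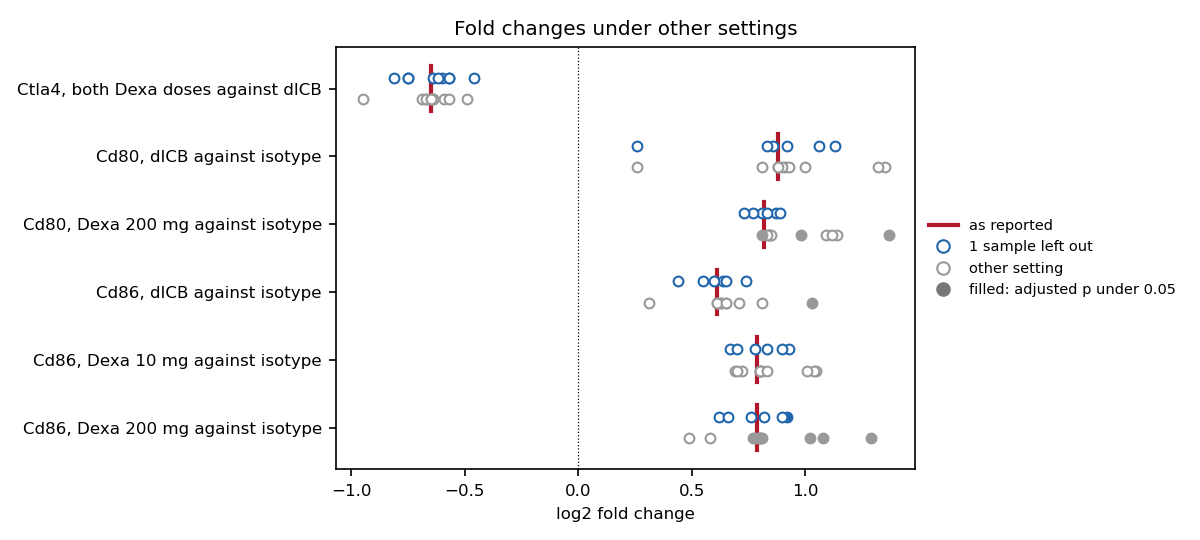
Log2 fold changes (horizontal axis, first-named group over second) of Ctla4, Cd80 and Cd86 in 6 comparisons as reported (bar), with 1 sample left out (blue) and under other settings (grey); filled points have an adjusted p under 0.05. Ctla4 for both doses against dICB stays between -0.95 and -0.46 with no filled point, and Cd86 for Dexa 200 mg against isotype between 0.49 and 1.29 with filled and open points.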

How the data were processed

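Total RNA came from formalin-fixed, paraffin-embedded primary tumours, per the labels' protocols. The authors deposited raw probe counts, whole numbers without normalisation, for 770 genes, 6 positive and 8 negative controls. The sources used here name neither instrument nor software. Of the gene names, 754 matched GRCm38.p6 symbols, 8 synonyms and 8 nothing.

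The tests used edgeR 4.0.16 in R 4.3.3. A mean count of 20 or more was required (635 genes), with TMM scaling and a quasi-likelihood model of 4 group means over 12 samples. This gave 8 residual degrees of freedom, 12.4 after moderation, and a common biological coefficient of variation of 28.3%. Tests were two-sided with Benjamini-Hochberg adjustment at 0.05. The SE, which is approximate, divides each log2 fold change by the root of its F value. Background was left in, so changes of dim genes are understated. Since samples may share an animal, p-values measure only sample spread, some of it perhaps technical. The edgeR script was tested on simulated data. Relative levels used log2 normalised counts and exact permutation tests in scipy 1.17.1.

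The members and lists were chosen with earlier results of these data known. Named were all 6 members, from each list up to 4 genes past the threshold or else at most 2 of smallest p, and 3 genes most like each member. Genes that rule named but that are left out here, and markers given for their detection, were chosen after their values were seen. Alternatives were DESeq2 1.42.0, housekeeping or positive control factors, no filter, a filter at a mean of 50, background subtraction with limma 3.58.1, a replicate block, the sample code as a covariate, the compared groups alone, and samples left out. Fits within a code were added after seeing the data.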

Additional observations from a re-analysis of the deposited data

How the results depend on the processing

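No paired design could be shown: the 18 pairs of samples with the same replicate number had correlations of their deviations from -0.382 to 0.289, and 4 were over 0.1. With the replicate block, Cd80 for 200 mg against dICB turned to 0.02, Ctla4 for both doses was at -0.65, 84 genes and 1 member passed for 200 mg against isotype, and no call on a member changed. Of the results given singly under the alternatives, 499 were counted as unchanged and 35 as changed in direction, while 6 gained and 7 lost a call. Unchanged means only the same direction and the same side of the threshold, whatever the size. Cd80 for dICB against isotype, at 0.88 as reported, counted as unchanged at 0.26 without dICB replicate 1. Few results passed at all, so these counts do not measure how steady the sizes were. Cd28, Icos and Icosl were summarised over their fits, and their changes of direction are not all in that count. They changed direction in 10 of 114, 4 of 121 and 36 of 121 fits. Over all fold changes of members, 646 were unchanged in that sense and 62 changed direction. Over relative levels, where no adjusted p could pass, the counts were 425 and 47. The causes were not tested, except where fewer samples entered.

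Members called for 200 mg against isotype numbered 2 with housekeeping factors (Cd80 and Cd86, 166 genes), 2 in a fit of those groups alone (181 genes), 0 with the code as covariate (29 genes), 0 to 1 with 1 sample left out (0 to 96 genes) and 1 within ICI7 (Cd80, 148 genes). Housekeeping factors called 1 for dICB against isotype (Cd86, 45 genes) and gave 5 pairs of members with correlations past 0.05, and DESeq2 called 1 in the test of any difference (Cd86, 71 genes). Positive control factors left 57 genes for 200 mg against isotype. DESeq2 called 31 genes for dICB against isotype, where edgeR called 0. The test of any difference called 5 genes as reported, 33 with housekeeping and 17 with positive control factors, 10 with the block, 48 without both samples that stood apart and 0 to 44 with 1 sample left out. Within ICI7, 7 genes passed between the doses. Housekeeping factors shifted the median of all genes to 0.46 for dICB, 0.23 for 10 mg and 0.55 for 200 mg against isotype, to -0.19 for 10 mg against dICB and to 0.32 between the doses, and positive control factors to 0.34 for 200 mg against isotype. With 1 sample left out, genes called ranged from 0 to 42 for dICB against isotype (42 without dICB replicate 3), and from 0 to 24 for both doses against dICB (24 without dICB replicate 2).

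Cd80 for 200 mg against dICB was at 0.01 with housekeeping factors, 0.15 with positive control factors, 0.19 after background subtraction and 0.56 without both samples that stood apart, and ran from -0.32 to 0.56 with 1 sample left out. Without both, Cd80 was at 0.26 for 10 mg and 0.41 for both doses, and it ran from -0.78 to 0.10 and from -0.55 to 0.33 with 1 left out. Between the doses, Ctla4 was at 0.13 with housekeeping factors, 0.07 without both samples and 0.41 within ICI7, and ran from -0.34 to 0.07. Cd86 between the doses was at 0.24 with housekeeping and 0.05 with positive control factors, 0.00 without a filter, 0.01 at a mean of 50 counts and after subtraction, and 0.07 without both samples, and ran from -0.15 to 0.11. Ctla4 for 200 mg against isotype was at 0.09 with housekeeping factors. Icos for dICB against isotype ran from -0.02 to 0.48 with 1 left out.

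Relative to Csf1r alone, Cd80 was at 0.29 and Cd86 at 0.26 for 200 mg against isotype. Relative to 4 myeloid genes, Cd80 was at 0.07 after subtraction and ran from -0.25 to 0.08 with 1 left out, and Cd86 from -0.18 to 0.01, and from -0.12 to 0.14 for dICB against isotype. Ctla4 relative to T cell genes for dICB against isotype ran from -0.04 to 0.64. No call on Cd28, Icos or Icosl was made in 114, 121 and 121 alternative fits. Cd28 had no value at a mean of 50 counts. Depth limits Cd28, Icos and Ctla4, which lie near background.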
